A study of Drosophila melanogaster with 6 samples.

Results

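The genes described here encode core machinery of DNA replication and S-phase entry in Drosophila melanogaster: the S-phase cyclin CycE, the helicase subunits Mcm2, Mcm3, dpa, Mcm5, Mcm6 and Mcm7, the polymerase clamp PCNA, and the ribonucleotide reductase subunits RnrL and RnrS. They were chosen by name, as a list of 10 genes, with earlier results of these data known. Of the 10, 9 had a matched identifier among the 17559 gene identifiers of the count data. Mcm3 was not analysed here. RNA was sequenced from whole embryos at 20 to 22 hours after egg laying, near the end of embryogenesis, with 100 embryos pooled per sample in a protocol whose wording names mutant embryos for all 6 samples. Titles and genotypes set the groups; the descriptions number all 3 controls as replicate 1, while the titles number them 1 to 3. In 3 samples the embryos were lola-O mutants (genotype lola-O / Df(2R)ED2076), labelled as knockouts of isoform O of the transcription factor gene lola over the deficiency Df(2R)ED2076. In the 3 controls (Wild type / Df(2R)ED2076) a wild-type second chromosome stood over the same deficiency, so both groups had a single copy of whatever that deficiency removes. The comparison asked whether replication genes differed between late embryos labelled as lola-O mutants and controls. Nothing in the sample descriptions shows that replicates came from separate crosses or collections, so p-values reflect only the spread among these samples, and that spread may be technical.

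DNA replication starts at origins that are first licensed: the origin recognition complex, Cdc6 and the Cdt1 protein (dup in flies) load the ring-shaped MCM helicase onto DNA. CycE with its kinase Cdk2 then triggers S phase, the helicase is activated by CDC45 and the GINS complex, and polymerases copy DNA while held by the PCNA clamp. Ribonucleotide reductase supplies the deoxynucleotides, and many of these genes are switched on together by E2F and Dp. By late embryogenesis most fly cells have left the mitotic cycle, while some larval tissues such as the gut enter endocycles, rounds of DNA synthesis with no division, and a few neuroblasts keep dividing.

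Total counts ranged from 16217213 to 22759638 per sample. Levels are given as CPM, read counts relative to library size and scaled between samples by TMM, and a change counts as passed at an edgeR adjusted p below 0.05. Of 10312 tested genes, 4093 passed, which is 39.7% of them; 20.2% were higher and 19.5% lower in the mutants. Shifts over all genes ran along transcript length, with the tested genes split by length into 10 equal groups. The median log2 fold change was 0.11 in the second-shortest group, where PCNA lies, and 0.056 in the fourth, where RnrS lies. It was 0.0028 in the seventh, where Mcm2, Mcm5, Mcm6, Mcm7 and RnrL lie. In the eighth, with dpa, it was -0.040, and in the ninth, with CycE, -0.065. In the longest group it was -0.14, with 37 of 1011 genes higher and 615 lower. The second-shortest group had 303 higher and 82 lower. The current identifier of lola was not among the identifiers used here, and counts summed over a gene would not isolate isoform O, so the genotype was not checked from these data.

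All 9 measured genes had positive log2 fold changes in the mutants, and 6 of them passed: PCNA, CycE, Mcm5, RnrL, dpa and RnrS. Among all tested genes, 50.2% had a positive log2 fold change and 20.2% passed as higher. None passed in the direction of lower, in edgeR or in DESeq2, since all 9 estimates were above 0 in both. The changes were modest, from 1.09-fold for RnrS to 1.41-fold for PCNA, with a median log2 fold change of 0.18 against 0.0010 over all tested genes. For 8 of the 9 genes every mutant sample lay above every control sample, and the same held for 24.1% of all tested genes. Among the 8, Mcm7 was level at 18.2 CPM in mutant 1 and control 2. Summed over the 9 genes, the level was 249 to 256 CPM in the mutants and 212 to 217 CPM in the controls. In whole embryos, a change in the number of replicating cells and a change in RNA per cell cannot be told apart.

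**Figure D1:**
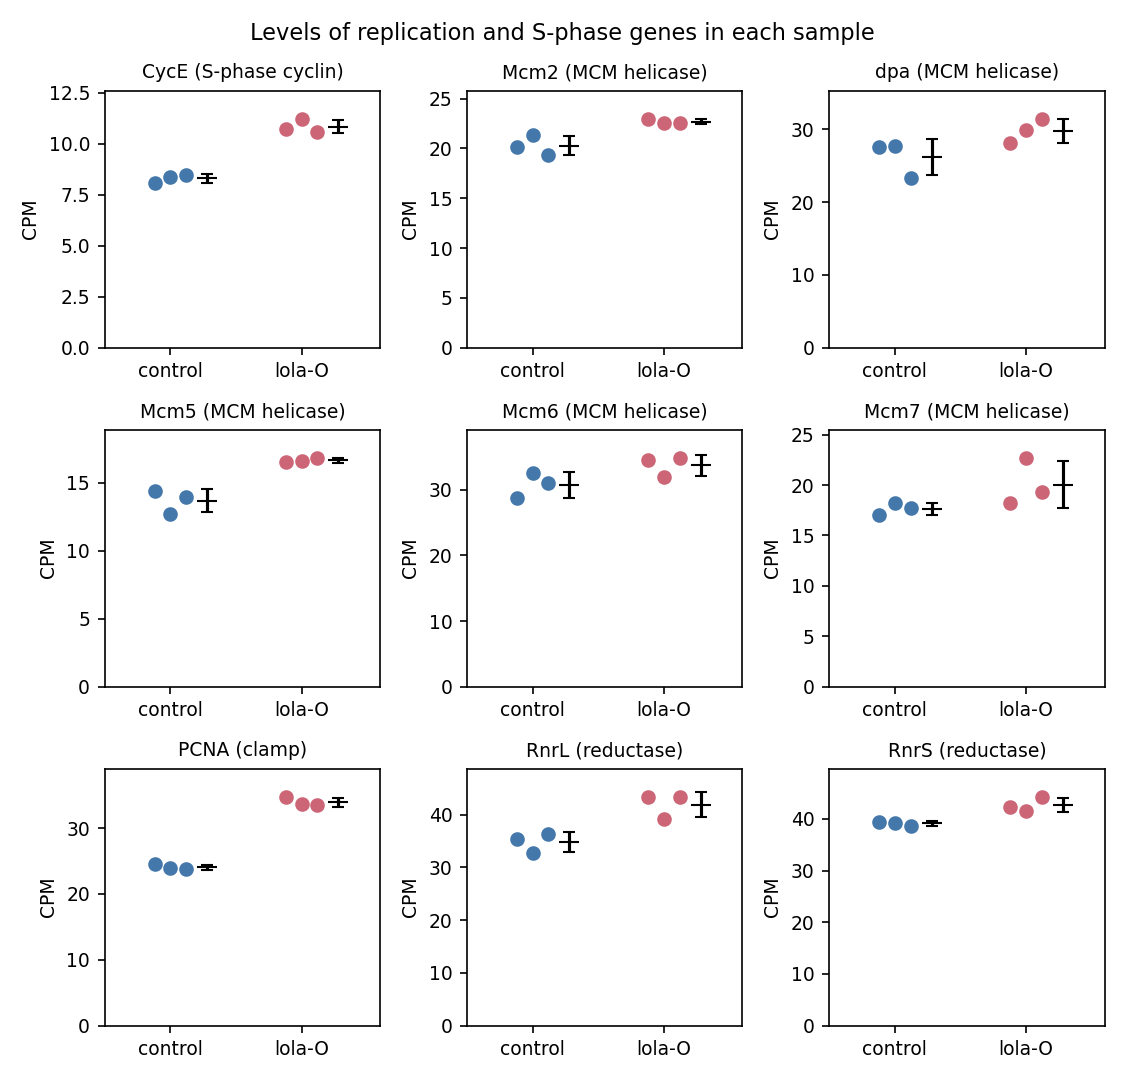
Level in CPM (vertical axis, from 0) of each measured gene in the 3 control samples (blue) and the 3 lola-O mutant samples (red), with the mean and SD of each group as a black mark beside the points. The groups overlap for Mcm6, meet for Mcm7 at 18.2 CPM (mutant 1 and control 2), and are apart in the other panels.

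CycE, the regulatory partner of Cdk2 and the trigger of both mitotic and endocycle S phases, was the least abundant gene of the list. It was counted at 10.7, 11.2 and 10.6 CPM in mutants 1 to 3 and at 8.05, 8.38 and 8.47 CPM in controls 1 to 3. The mutant samples all lay above the controls, and the gap was several times the spread within either group. CycE rose 1.304-fold (95% interval 1.14 to 1.496), a log2 fold change of 0.38 (standard error 0.099, edgeR adjusted p = 0.00110). Its exons overlap 2 noncoding genes of the opposite strand, which together had 1 count in the 6 samples.

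Around CycE, most of the other genes that control the switch from G1 to S phase did not pass. Of 10 tested, CycD rose, Cdk4 fell and 8 did not pass, so 20% passed against 39.7% of all tested genes. Cdk4, the kinase partner of cyclin D, was counted at 33.4, 34.2 and 32.9 CPM in the mutants against 39.7, 39.5 and 39.7 CPM in the controls, so it was lower in all 3 mutants, with a log2 fold change of -0.24 (standard error 0.053, edgeR adjusted p = 1.28e-04). CycD itself rose by 0.18 in log2 units, with an edgeR adjusted p of 0.0154; it did not pass in DESeq2 or without mutant 2 or control 2 (adjusted p of 0.0569 to 0.14). Cdk2 had a log2 fold change of 0.099 (95% interval -0.15 to 0.35) and did not pass; it shares 1010 exonic bases with a gene of the opposite strand. The activator E2f1 stood at 107 ± 1.86 CPM in the mutants against 109 ± 2.70 CPM in the controls (SD, 3 samples per group), with an interval of -0.094 to 0.049 on the log2 scale. For dap, which encodes the inhibitor of CycE-Cdk2, the log2 fold change was -0.16 and did not pass (edgeR adjusted p = 0.0872), although the 3 mutants were below the 3 controls.

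The MCM subunits form a ring of 6 different proteins that unwinds DNA ahead of the fork, and 5 of the 6 genes were measured. All 5 had positive log2 fold changes, but only Mcm5 and dpa passed. Mcm5 was counted at 16.5, 16.6 and 16.8 CPM in mutants 1 to 3 and at 14.3, 12.7 and 13.9 CPM in controls 1 to 3. The mutants were almost identical to each other and above all controls. Mcm5 rose 1.22-fold (95% interval 1.09 to 1.36), a log2 fold change of 0.29 (standard error 0.079, edgeR adjusted p = 0.00233).

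The gene dpa, which encodes the Mcm4 subunit, was less secure. It was counted at 28.1, 29.9 and 31.4 CPM in the mutants against 27.6, 27.7 and 23.3 CPM in the controls. Mutant 1 lay just above controls 1 and 2, and control 3 was the lowest sample. The log2 fold change was 0.18 (standard error 0.063, edgeR adjusted p = 0.0176), and dpa no longer passed without control 3 (log2 fold change 0.11, adjusted p = 0.182), without mutant 3 (0.14, adjusted p = 0.139) or in DESeq2 (adjusted p = 0.0818).

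Mcm2, Mcm6 and Mcm7 stood just outside the threshold. Mcm2 was counted at 22.9, 22.5 and 22.6 CPM in the mutants against 20.2, 21.3 and 19.4 CPM in the controls, groups that did not overlap. Its log2 fold change was 0.16 (95% interval 0.024 to 0.29, edgeR adjusted p = 0.0531). Mcm6, the most abundant MCM gene, was counted at 34.5, 31.9 and 34.8 CPM in the mutants against 28.7, 32.6 and 31.0 CPM in the controls. Here mutant 2 lay below control 2, the one overlap among the 9 genes. The log2 fold change of Mcm6 was 0.14 (95% interval 0.022 to 0.25, edgeR adjusted p = 0.0519), and 0.087 without control 1. Mcm7 was counted at 18.2, 22.7 and 19.3 CPM in the mutants against 17.0, 18.2 and 17.7 CPM in the controls. Mutant 2 stood apart from the other mutants, and mutant 1 lay level with control 2 at this precision. Its log2 fold change was 0.18 (95% interval 0.026 to 0.32, edgeR adjusted p = 0.0543), and 0.088 without mutant 2. An antisense gene covers 2003 exonic bases of Mcm7 but had 1 count in the 6 samples. Added over the 5 genes, MCM levels were 123 ± 2.40 CPM in the mutants against 109 ± 3.66 CPM in the controls (SD, 3 samples per group), a ratio of 1.13.

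**Figure D2:**
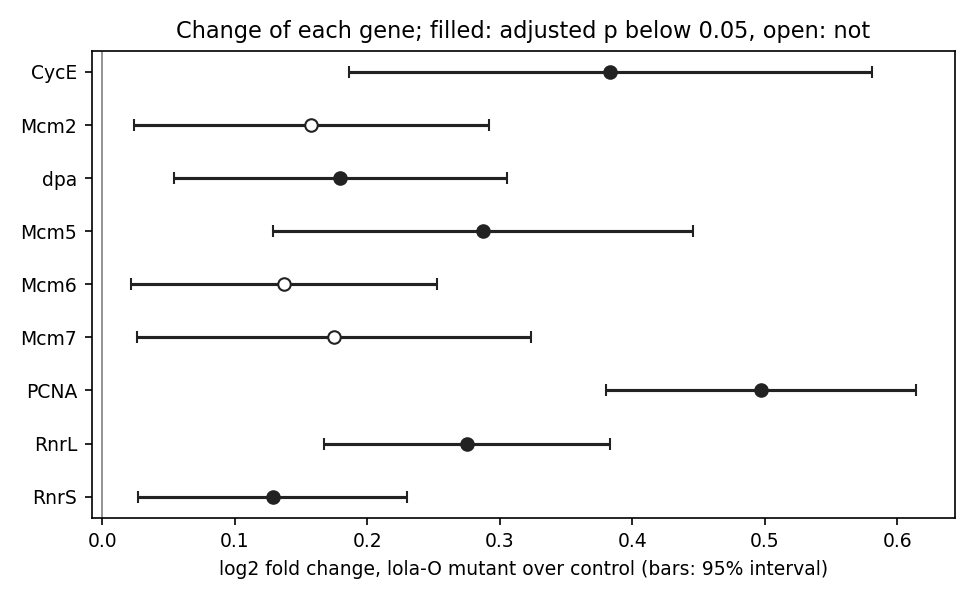
Log2 fold change of each measured gene, lola-O mutant over control (horizontal axis), with bars for the 95% interval; filled points passed at an adjusted p below 0.05 and open points did not. All 9 intervals lie above 0 before adjustment, and the interval of PCNA, 0.38 to 0.61, lies above those of Mcm2, dpa, Mcm6, Mcm7 and RnrS.

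PCNA, the ring that tethers DNA polymerase to its template and a classic marker of cells in S phase, showed the largest change of the 9 genes. It was counted at 34.7, 33.6 and 33.4 CPM in mutants 1 to 3 and at 24.5, 23.9 and 23.7 CPM in controls 1 to 3. The groups were about 10 CPM apart, with no sample between them. PCNA rose 1.41-fold (95% interval 1.301 to 1.53), a log2 fold change of 0.497 (standard error 0.059, edgeR adjusted p = 8.94e-11). Of all tested genes, 96.5% had a lower log2 fold change. PCNA2, a second clamp gene, did not pass (log2 fold change -0.13, edgeR adjusted p = 0.599).

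The clamp is opened and closed by loader complexes. Of 8 tested genes on the list of clamp loaders and the second clamp, RfC38, elg1 and CG8142 rose and 5 did not pass. RfC38, a replication factor C subunit, was counted at 9.31, 10.3 and 10.8 CPM in the mutants against 7.54, 7.28 and 5.72 CPM in the controls, all mutants above all controls. Its log2 fold change of 0.55 (standard error 0.11, edgeR adjusted p = 2.63e-05) was of the size of that of PCNA. CG8142 rose by 0.47 and elg1, whose product unloads PCNA, by 0.27 (edgeR adjusted p = 0.00296 and 7.17e-04). The log2 fold change of the large subunit gene Gnf1 was -0.025 and did not pass (edgeR adjusted p = 0.780). RfC38, elg1 and CG8142 share exonic bases with genes of the opposite strand, 404, 205 and 6 bases, and without a known strand setting their counts are less certain.

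Ribonucleotide reductase, built from RnrL and RnrS, makes the building blocks of DNA. RnrL, the large catalytic subunit, was counted at 43.3, 39.1 and 43.3 CPM in the mutants against 35.3, 32.8 and 36.3 CPM in the controls. The lowest mutant lay above the highest control. RnrL rose 1.21-fold (95% interval 1.12 to 1.304), a log2 fold change of 0.28 (standard error 0.054, edgeR adjusted p = 2.37e-05). RnrS, the small subunit, was counted at 42.4, 41.6 and 44.2 CPM in the mutants against 39.5, 39.3 and 38.6 CPM in the controls. These groups were also apart, by about 2 CPM. RnrS rose 1.09-fold (95% interval 1.02 to 1.17), a log2 fold change of 0.13 (standard error 0.051, edgeR adjusted p = 0.0367). It kept its call in 7 of 15 other settings, and no longer passed in DESeq2 (adjusted p = 0.123), with no low-count filter (adjusted p = 0.0553), with a correction for transcript length (log2 fold change 0.077, adjusted p = 0.260) or without any one sample other than mutant 2 (adjusted p of 0.0590 to 0.168).

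Nucleotide supply was followed further through 4 other genes: dUTPase and dnk rose and 2 did not pass. The gene dUTPase, whose product keeps uracil out of DNA, rose by 0.29 in log2 units, with an edgeR adjusted p of 0.00409 and 15.4 ± 1.11 CPM in the mutants against 12.4 ± 1.40 CPM in the controls (SD, 3 samples per group). The deoxynucleoside kinase gene dnk rose by 0.22 (edgeR adjusted p = 0.0139). Thymidylate synthase, Ts, had a log2 fold change of 0.36 and did not pass (edgeR adjusted p = 0.0691). Neither dUTPase nor dnk passed with the transcript-length correction; dUTPase was also lost without control 3 (adjusted p = 0.0523), and dnk in DESeq2 or without mutant 2, mutant 3 or control 1 (adjusted p of 0.0516 to 0.164), with a log2 fold change of 0.14 without mutant 2. An antisense gene overlaps 824 exonic bases of dUTPase.

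Levels were compared between genes as CPM per kilobase of the longest annotated transcript. In the controls the order was RnrS at 24.6 ± 0.285, PCNA at 22.5 ± 0.364, RnrL at 13.5 ± 0.712, Mcm6 at 11.02 ± 0.702, dpa at 8.53 ± 0.817, Mcm7 at 7.19 ± 0.245, Mcm2 at 7.002 ± 0.344, Mcm5 at 5.57 ± 0.348 and CycE at 2.10 ± 0.0561 CPM per kilobase (SD, n = 3). Mcm7 and Mcm2 did not differ beyond their spread, and the lowest dpa sample, at 7.58, was only just above the highest Mcm7 sample, at 7.41. In the mutants PCNA stood first at 31.7 ± 0.635 and RnrS second at 26.8 ± 0.848 CPM per kilobase (SD, n = 3). PCNA was above RnrS in 3 of 3 mutants and in 0 of 3 controls, also when the mean length of the annotated transcripts was used.

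Although the MCM proteins work in equal numbers, their transcripts were not equally abundant. Mcm6 was highest and Mcm5 lowest of the 5 in all 6 samples, and the ratio between them, per kilobase, was 1.69 to 2.26. PCNA exceeded the mean of the MCM genes 3.56 ± 0.143 times in the mutants and 2.86 ± 0.0986 times in the controls (SD, 3 samples per group), with no overlap between the groups. This ratio was not corrected for the shift along transcript length, and PCNA and the MCM genes lie in different length groups. With the transcript-length correction the log2 fold change of PCNA was 0.42 instead of 0.497. Those of the MCM genes were 0.14 to 0.28 instead of 0.14 to 0.29. RnrS exceeded RnrL 1.65 ± 0.0690 times in the mutants and 1.82 ± 0.111 times in the controls (SD, 3 samples per group), and the ranges overlapped at 1.72. No test was made of these ratios.

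**Figure D3:**
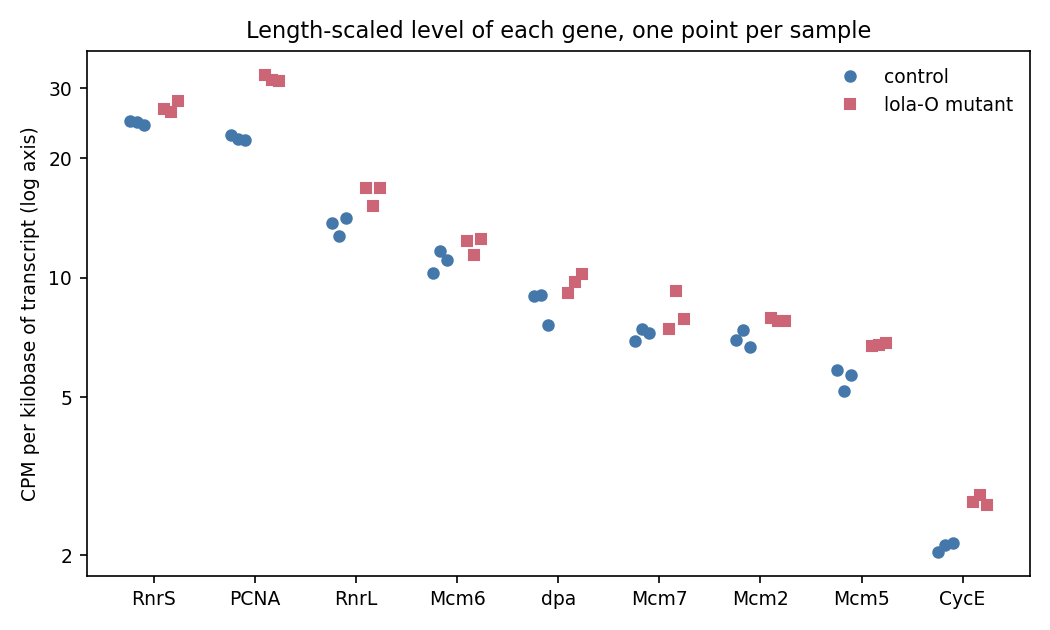
Level of each measured gene in CPM per kilobase of its longest annotated transcript (vertical log axis), 1 point per sample, controls as blue circles and lola-O mutants as red squares, ordered by the control mean. RnrS leads PCNA in the controls and PCNA leads RnrS in the mutants; Mcm6 is the highest and Mcm5 the lowest of the MCM genes in every sample.

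The rest of the replication machinery was examined in 10 lists holding 69 genes, of which 63 were tested. Of these, 20 rose, 2 fell and 41 did not pass, with 54 of the 63 log2 fold changes above 0 and a median of 0.17. The share that passed, 34.9%, was below the 39.7% of all tested genes, while 20 of the 22 that passed were higher. Over all tested genes, 50.2% of the log2 fold changes were above 0, and 51.0% of the genes that passed were higher. With the transcript-length correction 16 were higher and 1 lower, and 13 of the 20 genes kept their call; DESeq2 kept 11 of the 20.

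Origin licensing came first in order of action. Of 7 tested genes Orc6 and geminin rose and 5 did not pass, among them dup and Cdc6, with log2 fold changes of 0.18 and 0.17 (edgeR adjusted p = 0.0577 and 0.317). Orc6, a subunit of the origin recognition complex, rose by 0.56 (standard error 0.21, adjusted p = 0.0244 in edgeR) from a low level, 2.60, 3.13 and 2.42 CPM in the mutants against 2.04, 1.76 and 1.63 CPM in the controls. The gene geminin, which encodes the inhibitor of dup, rose by 0.18 (edgeR adjusted p = 0.0308). Neither passed in DESeq2 or with the transcript-length correction. Orc6 was also lost without mutant 2, control 2 or control 3 (adjusted p of 0.0614 to 0.107) and geminin without mutant 1, mutant 3 or control 1 (adjusted p of 0.0973 to 0.32), with a log2 fold change of 0.099 without control 1. Orc3 was at 0 counts in all 6 samples, and its exons coincide with those of CG34315 on the same strand, so reads of the pair cannot be told apart by position.

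Helicase activation came next. Of 11 tested activation genes, Cdc45, Mcm10, Ctf4 and Sld5 rose, chif fell and 6 did not pass. Cdc45, the partner of MCM and GINS in the active helicase, was counted at 21.3, 18.4 and 17.3 CPM in the mutants against 13.9, 16.01 and 13.9 CPM in the controls. The groups were apart, and its log2 fold change was 0.38 (standard error 0.080, edgeR adjusted p = 7.86e-05). Mcm10, an initiation factor outside the MCM ring, rose by 0.36, Ctf4 by 0.39 and the GINS gene Sld5 by 0.40 (edgeR adjusted p = 0.00172, 0.00282 and 0.0323). Mcm10 shares 367 exonic bases with Ret on the opposite strand. Ctf4 was lost without mutant 3 (adjusted p = 0.0646). Sld5 did not pass in DESeq2, with the transcript-length correction, or without mutant 1, mutant 2 or control 2 (adjusted p of 0.0546 to 0.26); without control 2 its log2 fold change was 0.25. The gene chif, for the activating subunit of the Cdc7 kinase, fell by 0.11 in log2 units, with an edgeR adjusted p of 0.0243, but stood at 0.019 with the transcript-length correction. It did not pass in DESeq2 or without mutant 1, mutant 2, control 1 or control 3 (adjusted p of 0.0506 to 0.0754). It shares 1507 exonic bases with Hyls1 on the same strand.

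Of 9 tested polymerase and primase genes, PolD1, Prim2 and PolE1 rose and 6 did not pass. PolD1, the catalytic subunit of DNA polymerase delta, was counted at 12.4, 11.4 and 13.5 CPM in the mutants against 9.30, 9.26 and 9.09 CPM in the controls, a log2 fold change of 0.44 (standard error 0.094, edgeR adjusted p = 1.09e-04). The primase subunit gene Prim2 rose by 0.46 and the polymerase epsilon gene PolE1 by 0.20 (edgeR adjusted p = 0.00451 and 0.0190); PolE1 did not pass in DESeq2 or without mutant 1 or control 1 (adjusted p of 0.0852 to 0.126). RPA1, the large subunit of the single-strand binding protein and the 1 tested gene of its list, stood at 0.068 (edgeR adjusted p = 0.341). On the list for Okazaki fragments, the flap nuclease gene Fen1 rose by 0.32 (edgeR adjusted p = 0.00232), while DNAlig1 and rnh1 at 0.16 and 0.15 did not pass (edgeR adjusted p = 0.221 and 0.210).

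Of 4 chromatin assembly genes 2 rose. Caf1-180, the large subunit of the histone chaperone that follows the fork, rose by 0.22 and asf1, another histone chaperone gene, by 0.199 (edgeR adjusted p = 8.54e-04 and 0.0166). Caf1-105 at 0.16 and Caf1-55 at 0.093 did not pass (edgeR adjusted p = 0.272 and 0.135). Among 6 checkpoint genes, Claspin rose by 0.23 and the Chk1 kinase gene grp by 0.12 (edgeR adjusted p = 0.0126 and 0.0371), and 4 did not pass. The call of Caf1-180 held in every other setting. That of asf1 was lost in DESeq2, with the transcript-length correction, or without any one of 4 samples (adjusted p of 0.0647 to 0.109), that of Claspin in DESeq2 or without mutant 1, mutant 3 or control 2 (0.0534 to 0.0659), and that of grp in DESeq2, with the transcript-length correction, with no low-count filter, or without mutant 2, mutant 3 or control 2 (0.0502 to 0.166). Among these, grp shares 223 exonic bases with squ on the same strand.

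**Figure D4:**
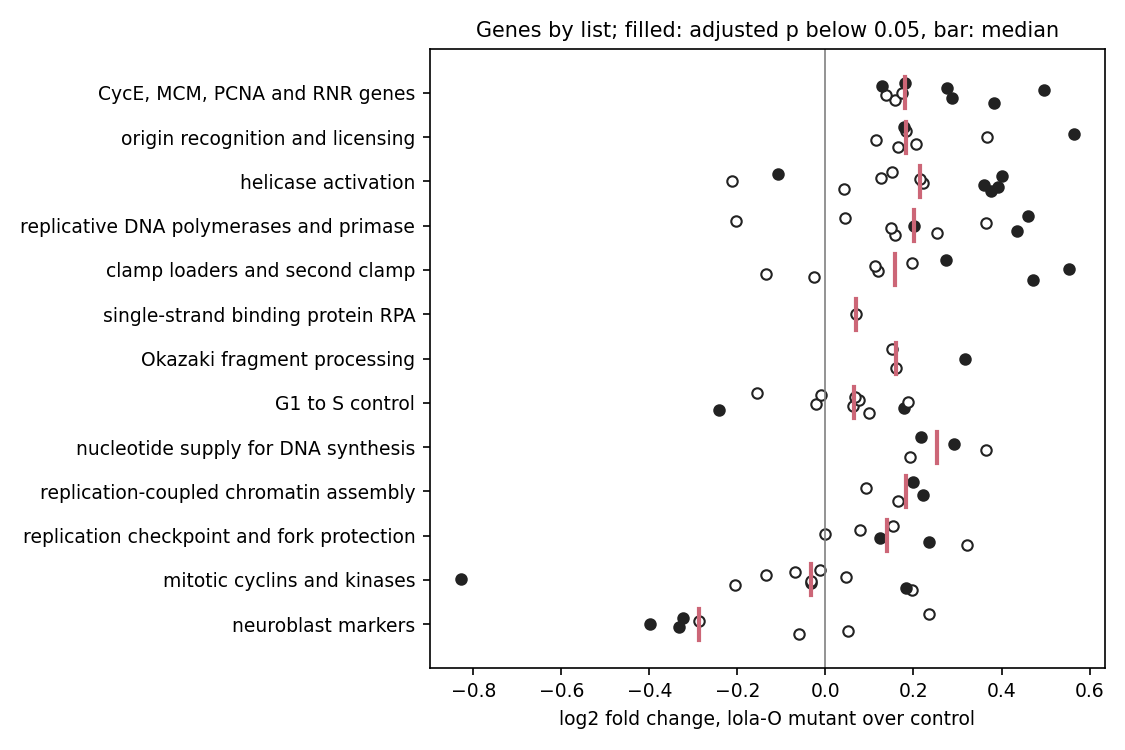
Log2 fold change, lola-O mutant over control (horizontal axis), of every tested gene in each list (rows); filled points passed at an adjusted p below 0.05, open points did not, and the red bar is the list median. The medians of the replication rows lie between 0.065 and 0.25, those of the mitotic and neuroblast rows at -0.033 and -0.29. With the transcript-length correction (not drawn) the replication medians were 0.043 to 0.24, and the mitotic and neuroblast medians -0.038 and -0.070.

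Mitotic genes were set beside these values, without a test of the difference between the lists. The list held mitotic cyclins, kinases and other mitotic regulators (stg, fzy and fzr). Of its 10 tested genes, CycA rose, aurB fell and 8 did not pass, with 3 of the 10 log2 fold changes above 0 and a median of -0.033. CycA, whose product also acts in S phase, rose by 0.18 (edgeR adjusted p = 0.0174; lost in DESeq2 and without control 1, adjusted p = 0.0756 and 0.0636), with 24.8 ± 0.327 CPM in the mutants against 21.8 ± 0.404 CPM in the controls (SD, 3 samples per group). The mitotic kinase gene aurB was counted at 1.12, 1.253 and 1.24 CPM in the mutants against 1.99, 2.51 and 1.85 CPM in the controls, a log2 fold change of -0.83 (standard error 0.24, edgeR adjusted p = 0.00425) that did not pass without control 2 (adjusted p = 0.0526). These are low counts, 20 to 57 per sample. CycB, CycB3, Cdk1, polo, stg, fzy, fzr and aurA were the 8 genes that did not pass.

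Markers of cell types that could hold replicating cells were listed beside these genes. Of 7 neuroblast markers, grh, pros and insc fell and 4 did not pass, and the list summed to 128 to 136 CPM in the mutants and 158 to 170 CPM in the controls. The factor grh, which also acts in the epidermis, fell by 0.33 in log2 units and pros, also present in differentiating neurons and glia, fell by 0.32 (edgeR adjusted p = 1.78e-10 and 4.99e-07); with the transcript-length correction grh stood at -0.21 and still passed (adjusted p = 9.69e-06), and pros no longer passed (-0.037, adjusted p = 0.618). The spindle orientation gene insc fell by 0.398, was lost in DESeq2 or without mutant 2 or control 2 (adjusted p of 0.0552 to 0.157), and shares 359 exonic bases with sktl. The more specific neuroblast genes dpn, wor, ase and mira did not pass, at 0.051, 0.23, -0.060 and -0.29. Of 4 midgut markers GATAe and Jon65Ai rose, while lab and Try29F, at -0.072 and -0.43, did not pass. The median of the midgut list was 0.037, and -0.0021 with the transcript-length correction. Its sums were 243 to 262 CPM in the mutants and 222 to 233 CPM in the controls. GATAe, an endoderm factor, rose by 0.31 (edgeR adjusted p = 7.12e-06), and Jon65Ai did not pass with the transcript-length correction. Of 3 tested genes listed as germline markers, ovo fell and piwi and aub did not pass. The list summed to 40.8 to 42.1 CPM in the mutants and 47.1 to 48.1 CPM in the controls over 4 measured genes. The call of ovo was lost with the transcript-length correction (adjusted p = 0.0784). Whether these genes mark only germ cells in whole embryos was not tested.

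Markers of differentiated tissues also differed. Muscle markers summed to 20658 to 21042 CPM in the mutants and 24109 to 24529 CPM in the controls, with 4 of 4 lower (Mhc, sls, bt and Act57B); with the transcript-length correction 3 were lower and sls was higher. Neuron markers summed to 1130 to 1200 CPM and 1227 to 1252 CPM, with elav, nSyb and brp lower and Syt1 not past the threshold, and glia markers to 233 to 238 CPM and 220 to 230 CPM, with alrm and Eaat1 higher, moody lower and repo not past the threshold. With the transcript-length correction 0 neuron markers were lower and Syt1 was higher, and of the glia markers 1 was higher and 1 lower. The single gene measured from the list of imaginal markers, ct, did not pass (-0.082, edgeR adjusted p = 0.0738), but was higher with the correction (0.12, adjusted p = 0.00469). Whether ct marks only imaginal cells in whole embryos was not tested. No marker that was measured stood at 0 in all samples. The part of tissue composition in the changes of the replication genes was not tested.

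By position in BDGP6.54, 5 of the 9 genes lie on the second chromosome, the chromosome that differs between the groups by construction. These are CycE (2L, 15727581 to 15748150), RnrL (2L, 10325026 to 10327943), dpa (2R, 7496702 to 7500145), RnrS (2R, 11983145 to 11985393) and PCNA (2R, 20261754 to 20262883). This split was noted after the values were seen. All 5 passed, with log2 fold changes of 0.13 to 0.497. Of the 4 on other chromosomes, Mcm2 (3R, 8264970 to 8267924), Mcm5 (3R, 10788524 to 10791150), Mcm6 (X, 6674387 to 6677176) and Mcm7 (3L, 8891596 to 8894310), only Mcm5 passed, with log2 fold changes of 0.14 to 0.29. The split rests on the threshold: Mcm2, Mcm6 and Mcm7 had edgeR adjusted p of 0.0519 to 0.0543 and passed with upper-quartile scaling (0.0439 to 0.0489), while dpa and RnrS did not pass in DESeq2 (0.0818 and 0.123). Among all tested genes, 21.1% of those on chromosome 2 and 19.7% of those on the others were higher in the mutants. The 3 genes on the arm of lola lie 1.44, 2.98 and 9.72 Mb from it, in the order RnrS, dpa and PCNA. Sequence differences between the second chromosomes were not examined. Their part and that of lola-O cannot be told apart for any of the 9 genes, on that chromosome or another.

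PCNA, CycE, Mcm5 and RnrL passed in all 15 other settings tried, with log2 fold changes of 0.42 to 0.51, 0.36 to 0.44, 0.24 to 0.33 and 0.24 to 0.32. The other 5 genes changed their call in at least 3 of the settings, and their direction was positive in each of the 15.

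**Figure D5:**
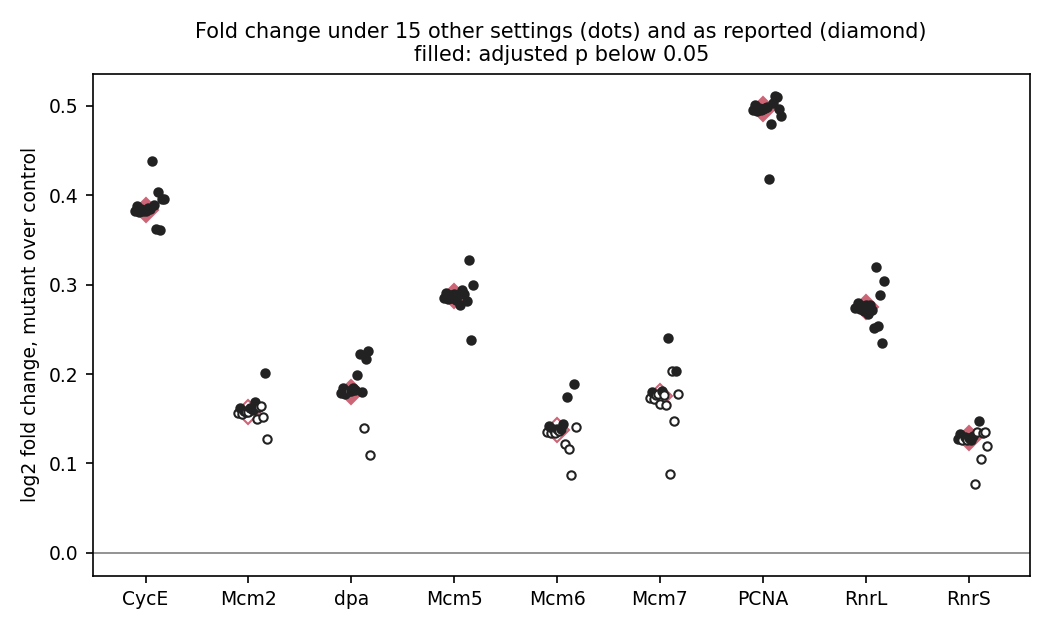
Log2 fold change, lola-O mutant over control (vertical axis), of each measured gene as reported (red diamond) and under 15 other settings (dots); filled marks passed at an adjusted p below 0.05. PCNA, CycE, Mcm5 and RnrL are filled throughout, and no mark lies below 0.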

How the data were processed

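Each deposited file lists genes by FlyBase identifier with raw read counts, which are whole numbers that the authors had not scaled. Build BDGP6 and the programs SAMtools 1.3.1, bedtools 2.25.0, Subread 1.5.1 and STAR 2.5.2b are named in the submitters' processing notes; which did what, the annotation release, the strand setting and the handling of multi-mapped reads are not given in the sources at hand. Per the labels, libraries were made from polyA RNA with a directional kit, and samples were grouped and numbered by their titles. Of 17559 identifiers, 17253 matched the Ensembl annotation of BDGP6.54, which gave symbols, positions and transcript lengths; the 306 others held 4.37% to 4.49% of the counts.

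The test was edgeR 4.0.16 under R 4.3.3 (TMM scaling, filterByExpr, robust glmQLFit and glmQLFTest, mutant against control), with Benjamini-Hochberg adjustment over 10312 genes and a threshold of 0.05. Tests were 2-sided. SE is the absolute log2 fold change over the square root of F, and 95% intervals use its degrees of freedom. A count of 0 allows up to 3 counts, 0.132 to 0.188 CPM; floors cover counting error only. The common biological coefficient of variation was 2.78%. Replicates differed by more than sampling noise (chi-square per degree of freedom 1.94 to 6.14), so none was taken as a copy.

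The members and gene lists were chosen with earlier results of these data known, and lists are described by counts and medians. Named genes were all members, up to 4 passing genes with the smallest adjusted p per list, and every gene of lists of 5 or fewer, apart from 1 that is not reported here; the non-passing genes named in longer lists, and Sld5, CG34315, Orc3, Hyls1, squ and sktl, were chosen after their values were seen. Genes not matched (Mcm3, Orc1, PolD3, RPA2, RPA3, Dna2, vas, nos, esg, hdc) were not analysed here. A planned search of promoters for motifs was not made, and no sequences were used. The 15 other settings were scaling by RLE or by the upper quartile, testing every gene with any low-count filter removed, requiring 5 CPM in 3 samples, DESeq2 1.42.0, limma-voom (limma 3.58.1), a replicate block, leaving out each sample or the 20 most abundant genes, and a transcript-length correction (a loess trend of log2 CPM deviation on log2 length, span 0.5, as an offset). The scripts were tested on simulated data.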

Additional observations from a re-analysis of the deposited data

How the results depend on the processing

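Of the 9 measured genes, 6 passed as reported. The count was 9 with upper-quartile scaling, 8 with the filter of 5 CPM, the replicate block or without the 20 most abundant genes, 7 with limma-voom or the transcript-length correction, 6 with RLE scaling, 5 without a low-count filter, and 4 with DESeq2. With a sample left out it was 4 to 8, the lowest without mutant 3 or control 3 and the highest without control 2. None passed in the direction of lower under any of these. Mcm2, Mcm6 and Mcm7 passed in 6, 7 and 4 of the 15 settings.

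Of the 63 other replication genes, 20 were higher and 2 lower as reported. DESeq2 gave 11 and 1, the transcript-length correction 16 and 1, and leaving out a sample 15 to 19 higher and 1 to 2 lower. The gene lost among the lower ones was chif in each case, and Cdk4 passed throughout.

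Over all tested genes the calls stayed within 1.5 times of the reported counts; DESeq2 gave the fewest higher (1625) and the transcript-length correction the fewest lower (1492). With a sample left out there were 1826 to 1976 higher and 1653 to 1896 lower. Same-numbered samples of the groups did not deviate together (correlations 0.023, -0.028 and 0.043), so the replicate numbers were not taken as pairs; the replicate block gave 2083 higher and 1994 lower genes. The ratio of the highest to the lowest MCM gene was 1.89 on average, and that of RnrS to RnrL 1.74. Mcm6, Mcm5, RnrS and RnrL each have 1 annotated transcript, so using the mean transcript length could not change these ratios. That of PCNA to the MCM mean was 3.29 with the mean length instead of 3.21. Depth limits the rarer genes: at 20 to 57 counts per sample, aurB had an SE of 0.24 against 0.051 for RnrS.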
